A study of Mus musculus with 39 samples.

Results

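The first day after serum withdrawal was examined in C2C12 cells that carry a CRISPR knockout of Flnc, by setting the 4 KO libraries of day 1 against the 4 KO libraries of day 0. These are 8 of the 39 libraries of a series that followed KO and wild-type (WT) C2C12 cells at days 0, 1, 2, 4 and 6 of myogenic differentiation. KO day 1 cells had spent 1 day in medium with 2% horse serum, and KO day 0 cells were growing in medium with 10% fetal bovine serum. WT day 1 and WT day 0 cells, without the edit and 4 libraries each, went through the same change of medium and are used only to show where the KO cells differ. The Flnc guide targets the first exon, both KO groups carry the edit, and whether the KO line is 1 clone or a pool is not given in the sources used here. The libraries of each group carry the replicate numbers 1, 3, 4 and 5, in which order all values per library are given, and the labels do not say that they are separate cultures, so p-values measure the spread between these samples, which may be technical.

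C2C12 is a mouse myoblast line. In rich serum it divides. When mitogens are withdrawn, myoblasts leave the cell cycle in G1 through the retinoblastoma pathway, lose the Id proteins that hold E proteins away from MyoD, switch on myogenin and then the genes of the contractile apparatus, and fuse into myotubes. The same withdrawal lowers signalling from growth factor receptors to Akt and mTOR, which frees FoxO factors to activate their targets and slows the making of ribosomes. Flnc encodes filamin C, which binds and crosslinks actin filaments in striated muscle, mainly around the Z-disc.

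KO day 1 libraries held 12964164 to 22301310 counts and KO day 0 libraries 19977809 to 28234783. Levels are given in CPM, counts scaled to library size with TMM factors. They are not divided by gene length and are compared only within a gene. The edited gene, Flnc (chr6:29433256-29461883, GRCm38), had 61.8, 28.2, 45.3 and 76.3 CPM at KO day 1 and 25.3, 16.5, 54.8 and 20.7 CPM at KO day 0. Those levels were 6.78% of the WT mean at day 1 (52.9 ± 20.8 CPM in KO, 780 ± 295 CPM in WT, SD, n = 4 each, exact two-sided permutation p = 0.0286) and 4.36% at day 0 (29.3 ± 17.4 CPM in KO, 672 ± 239 CPM in WT, exact two-sided permutation p = 0.0286, the smallest that 4 against 4 allows). Between the KO groups, Flnc missed the threshold (log2 fold change 0.85, adjusted p = 0.114 by edgeR's quasi-likelihood test with Benjamini-Hochberg adjustment), and passed it without KO day 1 replicate 3 (log2 fold change 1.06, adjusted p = 0.0253). In bulk RNA, fewer cells that express a gene and less RNA of it per cell cannot be told apart.

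KO day 1 replicate 3 stood apart from its group. Its log2 CPM correlated with the other 3 at a mean r of 0.799, against 0.891 to 0.909 for each of those, over 10185 genes with at least 5 CPM. Ribosomal protein genes took 9.45% of its counts, against 2.13% to 3.16% in the rest of the group. Genes were split in tertiles by total exon length. Relative to the mean of the other 3 libraries, the longest tertile deviated by a median of -0.89 on the log2 scale and the shortest tertile by 0.70. KO day 0 replicate 3 leaned the same way, with 6.96% ribosomal protein counts and medians of -0.35 for the longest and 0.32 for the shortest tertile, so leaving out the day 1 library alone leaves that lean in the day 0 group. Each list's count is therefore also given without KO day 1 replicate 3, and a gene's value where this ends the call, turns its direction or moves its fold by over 1.5 times.

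**Figure D1:**
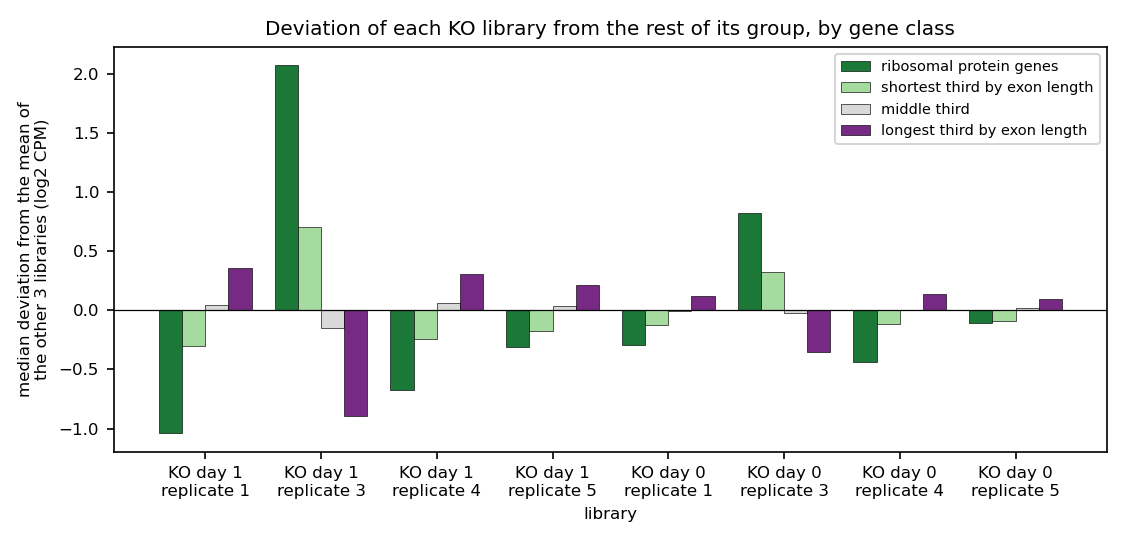
Median deviation (log2 CPM) of each KO library from the mean of the other 3 libraries of its group, for ribosomal protein genes and for genes in tertiles of exon length, with KO day 1 left of KO day 0. Replicate 3 of KO day 1 was higher by 2.07 in ribosomal protein genes and lower in the tertile of longest total exon length. Replicate 3 of KO day 0 deviated in the same directions by less.

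Of 13780 genes tested, 576 (4.18%) rose and 524 (3.8%) fell in KO cells between day 0 and day 1, 1100 (7.98%) in all, at an adjusted p under 0.05 in edgeR's quasi-likelihood test over all 39 libraries. That fit gave every adjusted p here, except those given without a library or with the replicate block, which come from those fits. Without KO day 1 replicate 3 there were 1440 (10.5%) higher and 1546 (11.2%) lower, and 1043 of the 1100 calls (94.8%) were made again in the same direction. Leaving out another library moved the total of 1100 to 1673 (without KO day 0 replicate 1), 326 (without KO day 0 replicate 3), 497 (without KO day 0 replicate 5), 511 (without KO day 1 replicate 1) and 373 (without KO day 1 replicate 5). With the replicate number as a block, fitted on these 8 libraries alone, 731 (5.98%) of 12224 genes rose and 699 (5.72%) fell. Fitted on the same 8 libraries without the block, 11 genes rose and 6 fell. The number of calls therefore depends on how the spread is modelled. In 493 genes (3.58%) all 4 day 1 libraries lay above all 4 day 0 libraries, and in 535 (3.88%) all lay below. The lists below inherit this dependence, and each count is to be read against the share of all genes in the same fit. A list's only call in a direction was lost without at least 1 library other than KO day 1 replicate 3, apart from the single falls among SRF and YAP targets, glucocorticoid targets, myogenic transcription factors and epithelial markers. Without KO day 0 replicate 1, lists with 1 call had up to 4. The median log2 fold change over all genes was 0.02, and -0.01 without KO day 1 replicate 3.

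The lists with the most falling members on the first day were DNA replication and ribosome biogenesis, and the list with the most rising members was excitation-contraction coupling and the endplate. Promoter windows of 4 genes are shown because most members of their groups had fold changes of the same sign. They were taken from RefSeq (GRCm38.p6, 250 bases before to 50 after the annotated start, 5′ to 3′ on the gene's strand). Capitals mark the motif: an E2F site (TTTGGCGC, TTTCCCGC, TTTGCCGC or TTTCGCGC) in Cdt1, an E-box CACGTG, the form bound by Myc, in Mybbp1a, the E-box CAGCTG, a form bound by MyoD and its E protein partners, in Chrng, and a cell cycle genes homology region (TTTGAA or TTCGAA) in Racgap1, which encodes a GTPase-activating protein of the central spindle. Of each group, the gene shown is the member with the smallest p whose window holds the motif, among called members or, for mitosis, all tested.
Cdt1, chr8:122567765-122568064, plus strand: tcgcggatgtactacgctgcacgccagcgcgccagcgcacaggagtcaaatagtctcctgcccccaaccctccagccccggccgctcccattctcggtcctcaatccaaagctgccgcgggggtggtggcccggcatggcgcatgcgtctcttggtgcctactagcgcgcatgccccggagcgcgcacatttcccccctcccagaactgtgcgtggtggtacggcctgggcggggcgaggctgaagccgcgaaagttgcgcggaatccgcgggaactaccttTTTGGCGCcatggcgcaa
Mybbp1a, chr11:72441077-72441376, plus strand: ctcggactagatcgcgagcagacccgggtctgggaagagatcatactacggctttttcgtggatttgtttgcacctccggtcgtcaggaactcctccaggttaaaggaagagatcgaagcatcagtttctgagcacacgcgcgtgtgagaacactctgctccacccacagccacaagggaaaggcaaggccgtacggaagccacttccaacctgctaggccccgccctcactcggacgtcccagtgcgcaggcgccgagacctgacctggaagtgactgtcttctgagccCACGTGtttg
Racgap1, chr15:99651607-99651906, minus strand: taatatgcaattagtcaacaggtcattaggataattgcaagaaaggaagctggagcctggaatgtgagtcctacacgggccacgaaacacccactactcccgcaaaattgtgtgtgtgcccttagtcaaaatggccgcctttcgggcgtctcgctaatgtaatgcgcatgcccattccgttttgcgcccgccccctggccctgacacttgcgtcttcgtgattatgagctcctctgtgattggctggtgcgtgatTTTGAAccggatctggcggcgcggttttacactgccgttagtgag
Chrng, chr1:87205561-87205860, plus strand: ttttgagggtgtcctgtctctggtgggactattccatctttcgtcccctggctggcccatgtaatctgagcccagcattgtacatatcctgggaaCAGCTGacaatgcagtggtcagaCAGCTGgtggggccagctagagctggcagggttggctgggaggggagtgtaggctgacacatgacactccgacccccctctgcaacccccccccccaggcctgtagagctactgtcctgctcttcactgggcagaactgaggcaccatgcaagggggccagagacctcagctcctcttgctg

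Windows were found for 10509 of the 13780 genes tested, and each motif was sought on both strands in all windows of a gene. An E2F site stood in the windows of 13 of 32 DNA replication genes (40.6%), against 4.63% of all genes with a window, and in 8 of 15 of those that fell. CACGTG was present in 7 of 25 ribosome biogenesis genes (28%), against 11.6% of all genes, and in 2 of 12 of those that fell. CAGCTG was present in 8 of 14 genes of excitation-contraction coupling and the endplate (57.1%) and in 13 of 32 sarcomere genes (40.6%), against 18.5% of all genes. Of the members that rose, it was present in 5 of 8 excitation-contraction and endplate genes and in 1 of 4 sarcomere genes with a window (25%). A cell cycle genes homology region stood in 27 of 33 mitotic genes (81.8%), against 16.4% of all genes and 6 of 32 DNA replication genes. A match is a string of letters in this window and not a measured binding site.

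Genes that copy DNA fell in KO cells on the first day, when 3.8% of all genes tested fell. Of 40 DNA replication genes tested, 16 fell and 0 rose (median log2 fold change -1.24, against 0.02 over all genes), with 32 falling without KO day 1 replicate 3 and 29 with the replicate block. All 40 had a negative fold change. The count was 25 without KO day 0 replicate 1, 8 without KO day 0 replicate 3, 10 without KO day 0 replicate 5, 10 without KO day 1 replicate 1, 32 without KO day 1 replicate 3 and 6 without KO day 1 replicate 5. Fen1 encodes the flap endonuclease that trims Okazaki fragments. It had 28.5, 45.2, 61.1 and 27.5 CPM at KO day 1, against 51.4, 121, 103 and 112 CPM at KO day 0 (log2 fold change -1.25 ± 0.40 (SE), adjusted p = 0.00283). Mcm2 encodes a subunit of the replicative helicase. It had 46.6, 63.3, 114 and 28.6 CPM at KO day 1, against 111, 188, 248 and 230 CPM at KO day 0 (log2 fold change -1.62 ± 0.49 (SE), adjusted p = 0.003). Cdt1 encodes the factor that loads that helicase at origins. It had 16.4, 38.1, 49.5 and 23.3 CPM at KO day 1, against 34, 124, 106 and 124 CPM at KO day 0 (log2 fold change -1.61 ± 0.57 (SE), adjusted p = 0.00631). In all 3 genes KO day 0 replicate 1 was the lowest day 0 library and overlapped the day 1 range. Pola2 encodes a subunit of DNA polymerase alpha. It ranged over 18.7 to 50.2 CPM at KO day 1 and 43 to 89.8 CPM at KO day 0 (log2 fold change -1.25, adjusted p = 0.00324).

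The spread among libraries had a pattern in this group. KO day 0 replicate 1 was the lowest day 0 library in 15 of the 16 falling replication genes, and among day 1 libraries replicate 5 was the lowest in 14 and replicate 4 the highest in 12. In 4 of these 16 called genes the day 1 and day 0 libraries did not overlap. Over all genes tested, called or not, all day 1 libraries lay below in 3.88%. Mcm5, another helicase subunit, did not overlap but missed the threshold, with 50.3, 132, 137 and 26.4 CPM at KO day 1, against 140, 285, 383 and 311 CPM at KO day 0 (log2 fold change -1.69, adjusted p = 0.0707), and passed it without KO day 1 replicate 3 (log2 fold change -1.97, adjusted p = 0.0322) and with the replicate block (-1.86, adjusted p = 0.014).

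Mitotic genes leaned the same way, but few passed. Of 40 genes of mitosis and cytokinesis, 1 fell and 0 rose, near or under the 3.8% of all genes that fell. All 40 had a negative fold change (median -0.88). Falling members numbered 4 without KO day 1 replicate 3, near the 11.2% of all genes in that fit. With the replicate block, in which each day 1 library is set against the day 0 library of its number, 16 fell. That fit called 5.72% of all genes lower. The member that fell was Incenp, a subunit of the chromosomal passenger complex, with 62.5, 46.9, 109 and 44 CPM at KO day 1, against 98.5, 162, 141 and 159 CPM at KO day 0 (log2 fold change -1.10 ± 0.34 (SE), adjusted p = 0.0313). Racgap1 had 210, 235, 381 and 128 CPM at KO day 1, against 373, 543, 360 and 608 CPM at KO day 0 (log2 fold change -0.98, adjusted p = 0.0565), and passed without KO day 1 replicate 3 (log2 fold change -0.97, adjusted p = 0.0488). Ccnb1, the mitotic cyclin B1, did not overlap between days, with 60.4, 88.8, 103 and 33.1 CPM at KO day 1, against 108, 191, 116 and 192 CPM at KO day 0 (log2 fold change -1.09, adjusted p = 0.443), and passed with the block (log2 fold change -1.14, adjusted p = 0.0487). Mki67 is the gene of the proliferation antigen Ki-67. It had 203, 54.6, 321 and 118 CPM at KO day 1, against 166, 214, 234 and 289 CPM at KO day 0 (log2 fold change -0.37, adjusted p = 0.836). For Mki67, day 1 replicate 4 was above every day 0 library, and replicates 3 and 5 were below them all.

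Among G1 regulators the fall was limited to a few genes. Of 10 G1 cyclins and kinases, 3 fell and 0 rose (median -0.66), with 4 falling without KO day 1 replicate 3. Falling members numbered 1 without KO day 0 replicate 3 or KO day 0 replicate 5 or KO day 1 replicate 1 or KO day 1 replicate 5. Ccnd1 encodes the mitogen-induced cyclin D1. It had 108, 120, 168 and 61 CPM at KO day 1, against 186, 479, 381 and 541 CPM at KO day 0 (log2 fold change -1.80 ± 0.46 (SE), adjusted p = 0.0175), and the days did not overlap. Cdc25a encodes a phosphatase that activates CDK2. It had 10.2, 10.3, 19 and 11 CPM at KO day 1, against 20.4, 31.2, 26.7 and 29.9 CPM at KO day 0 (log2 fold change -1.10 ± 0.25 (SE), adjusted p = 0.000689). Cdk2 ranged over 30.7 to 64.1 CPM at KO day 1 and 42.8 to 76.6 CPM at KO day 0 (log2 fold change -0.62, adjusted p = 0.0454, and adjusted p = 0.0718 with the block). Ccne1, cyclin E1, missed the threshold (log2 fold change -1.21, adjusted p = 0.115) and passed it without KO day 1 replicate 3 (log2 fold change -1.58, adjusted p = 0.0276). Its partner gene Ccne2 had 7.18, 68.1, 30 and 10.7 CPM at KO day 1, against 21.6, 54, 61.4 and 78.5 CPM at KO day 0 (log2 fold change -0.90, adjusted p = 0.429, and -1.76, adjusted p = 0.072 without KO day 1 replicate 3). The D-type cyclins Ccnd2 and Ccnd3 had log2 fold changes of 0.48 and 0.02, adjusted p = 0.584 and 0.985, and Ccnd3 turned to -0.16, adjusted p = 0.742 without KO day 1 replicate 3. Skp2, a subunit of the ligase that degrades p27, had -0.70 (adjusted p = 0.108), and Cdk4 and Cdk6 had -0.24 and -0.23 (adjusted p = 0.552 and 0.751), Cdk6 turning to 0.03, adjusted p = 0.968 without KO day 1 replicate 3.

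Few of the inhibitors of these kinases passed the test. Of 8 CDK inhibitors and pocket proteins tested, 0 rose and 1 fell (median 0.41), and 2 rose without KO day 1 replicate 3 or with the block. Cdkn1a is the gene of p21. It had 290, 300, 150 and 223 CPM at KO day 1, against 220, 149, 190 and 119 CPM at KO day 0 (log2 fold change 0.51, adjusted p = 0.326). Cdkn1b is the gene of p27. It had 91, 114, 119 and 108 CPM at KO day 1, against 85.2, 91.7, 78.7 and 94.4 CPM at KO day 0 (log2 fold change 0.31, adjusted p = 0.238). The member that fell was Cdkn2d, the gene of the INK4 inhibitor p19, with 16.8, 30.3, 29.7 and 20.3 CPM at KO day 1, against 42.6, 59.6, 36.1 and 44.1 CPM at KO day 0 (log2 fold change -0.91 ± 0.26 (SE), adjusted p = 0.0242). Rb1 is the gene of the retinoblastoma protein. It had 93.1, 21.4, 61.1 and 58.9 CPM at KO day 1, against 40.5, 22.6, 29.9 and 26.7 CPM at KO day 0 (log2 fold change 0.97, adjusted p = 0.128), and both it and its relative Rbl2 passed without KO day 1 replicate 3 (log2 fold change 1.24, adjusted p = 0.0207 for Rb1 and 0.87, adjusted p = 0.00901 for Rbl2). Rbl1, Cdkn1c and Cdkn2c had log2 fold changes of -0.57, 0.61 and -0.52 (adjusted p = 0.287, 0.584 and 0.274). Of 14 E2F and MYB factors, 2 fell and 0 rose (median -0.42). Leaving out KO day 1 replicate 3 gave 1 rising and 2 falling. Falling factors numbered 4 without KO day 0 replicate 1, 0 without KO day 0 replicate 3 or KO day 1 replicate 5 and 1 without KO day 0 replicate 5 or KO day 1 replicate 1. E2f1 encodes an activator of S phase genes. It had 23, 23.4, 21.6 and 13.9 CPM at KO day 1, against 38.1, 44.2, 38.4 and 40.3 CPM at KO day 0 with no overlap (log2 fold change -0.98 ± 0.18 (SE), adjusted p = 0.0142), and its dimer partner Tfdp1 also fell (log2 fold change -0.78, adjusted p = 0.0143, and adjusted p = 0.0593 with the block).

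Ribosome biogenesis genes fell as well. Of 30 genes of ribosome biogenesis and Myc targets tested, 16 fell and 0 rose (median -0.91), with 19 falling without KO day 1 replicate 3, and all 30 had a negative fold change. The count was 4 without KO day 0 replicate 3, 10 without KO day 0 replicate 5, 8 without KO day 1 replicate 1 and 9 without KO day 1 replicate 5. Odc1 encodes the rate-limiting enzyme of polyamine synthesis. It had 54.5, 108, 76.9 and 52.6 CPM at KO day 1, against 117, 317, 158 and 280 CPM at KO day 0 (log2 fold change -1.58 ± 0.42 (SE), adjusted p = 0.000414). Nop56 encodes a core protein of the snoRNPs that methylate ribosomal RNA. It had 64.5, 103, 68 and 50.3 CPM at KO day 1, against 98.1, 276, 129 and 206 CPM at KO day 0 (log2 fold change -1.31 ± 0.40 (SE), adjusted p = 0.00298). The days did not overlap for Odc1, and for Nop56 they overlapped through KO day 0 replicate 1 and KO day 1 replicate 3. The product of Rrp12 exports ribosomal subunits. Its RNA ranged over 13.5 to 26.7 CPM at KO day 1 and 31.8 to 63.4 CPM at KO day 0 (log2 fold change -1.26, adjusted p = 0.0044). Nolc1 encodes a nucleolar chaperone of snoRNPs. It ranged over 47 to 66.4 CPM at KO day 1 and 72.6 to 182 CPM at KO day 0 (log2 fold change -1.02, adjusted p = 0.00461, and adjusted p = 0.0612 with the block). Mybbp1a encodes a nucleolar protein whose promoter is shown. It had 258, 173, 283 and 186 CPM at KO day 1, against 288, 521, 471 and 548 CPM at KO day 0 (log2 fold change -1.02 ± 0.27 (SE), adjusted p = 0.00932). Myc itself had 18.5, 21.7, 18.7 and 18.3 CPM at KO day 1, against 16.8, 62.7, 35.5 and 42.3 CPM at KO day 0 (log2 fold change -1.03, adjusted p = 0.137), with the 4 day 1 libraries close together and KO day 0 replicate 1 below them.

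Several FoxO targets and genes of the insulin-like growth factor axis rose. Of 20 FoxO targets, 6 rose and 0 fell (median 0.85), with 11 rising without KO day 1 replicate 3. The count was 10 without KO day 0 replicate 1 and 11 without KO day 1 replicate 3, and as low as 4 without another single library. Fbxo32 is the gene of the muscle ubiquitin ligase atrogin-1. It had 185, 35, 69.5 and 189 CPM at KO day 1, against 33, 10.9, 18.4 and 13.1 CPM at KO day 0 (log2 fold change 2.66 ± 0.69 (SE), adjusted p = 9.43e-05). Trim63 is the gene of the ligase MuRF1. It had 3.11, 2.71, 2.05 and 9.41 CPM at KO day 1, against 0.549, 0.206, 1.11 and 0.317 CPM at KO day 0 (log2 fold change 2.97 ± 0.63 (SE), adjusted p = 0.000572). Both ligases were higher in each day 1 library than in any day 0 library. Gadd45a encodes a stress-induced regulator of growth arrest. It had 117, 92, 37.2 and 144 CPM at KO day 1, against 35.4, 16.9, 14.8 and 12.4 CPM at KO day 0 (log2 fold change 2.29 ± 0.54 (SE), adjusted p = 8.21e-05). Ccng2 encodes an atypical cyclin of quiescent cells. It ranged over 70.6 to 99.7 CPM at KO day 1 and 17.4 to 47.6 CPM at KO day 0 (log2 fold change 1.47, adjusted p = 0.000208).

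Of 19 genes of the insulin-like growth factor axis, 7 rose and 0 fell (median 1.11), with 8 rising without KO day 1 replicate 3. The count was 2 without KO day 0 replicate 3, 2 without KO day 0 replicate 5, 4 without KO day 1 replicate 1, 4 without KO day 1 replicate 4 and 3 without KO day 1 replicate 5. Igfbp5 (chr1:72857932-72874884), a secreted binding protein of these factors, had 7190, 1400, 4020 and 7780 CPM at KO day 1, against 1200, 912, 1260 and 1300 CPM at KO day 0 (log2 fold change 2.13 ± 0.58 (SE), adjusted p = 0.000566). Replicate 3 was the lowest day 1 library for Igfbp5 and still above all day 0 libraries. Ghr encodes the growth hormone receptor. It ranged over 38.2 to 76.3 CPM at KO day 1 and 16.6 to 35.8 CPM at KO day 0 (log2 fold change 1.23, adjusted p = 0.00471). H19 is an imprinted noncoding RNA next to Igf2. It had 3110, 3370, 3920 and 6020 CPM at KO day 1, against 1130, 1500, 2680 and 1020 CPM at KO day 0 (log2 fold change 1.38 ± 0.38 (SE), adjusted p = 0.0114), and the days did not overlap. Grb10 encodes an adaptor that restrains the insulin and IGF1 receptors. It ranged over 1.5 to 2.65 CPM at KO day 1 and 0.238 to 0.939 CPM at KO day 0 (log2 fold change 1.84, adjusted p = 0.0173). The receptor Igf1r and the adaptor Irs1 rose as well (log2 fold change 1.11, adjusted p = 0.0208 for Igf1r, and log2 fold change 1.25, adjusted p = 0.0414 for Irs1). The ligand gene Igf2 had 197, 16.7, 29.4 and 50.9 CPM at KO day 1, against 112, 22.9, 13.3 and 16.2 CPM at KO day 0 (log2 fold change 0.84, adjusted p = 0.458), with replicate 1 the highest library on both days.

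**Figure D2:**
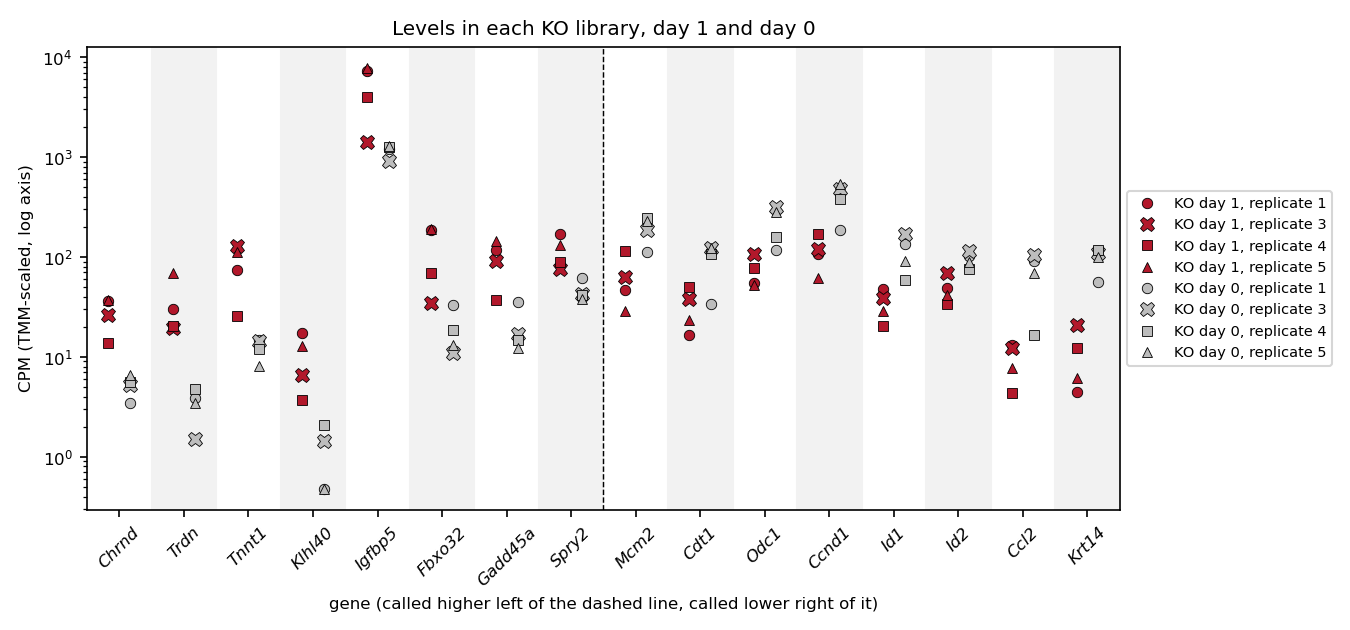
CPM on a log axis of 16 named genes in each KO library, day 1 in red left of day 0 in grey, with a marker for each replicate number and a cross for replicate 3. The 8 genes left of the dashed line were called higher and the 8 right of it lower. For Chrnd the day 1 libraries sit between 13.9 and 36.9 CPM, above all day 0 libraries, while for Cdt1 the days overlap through KO day 0 replicate 1.

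Id1 and Id2 fell. Of 22 Id inhibitors and BMP or TGF-beta response genes tested, 4 fell and 0 rose (median -0.68), with 3 falling without KO day 1 replicate 3 and 8 with the block. The falls numbered 2 without KO day 0 replicate 3 or KO day 1 replicate 1 or KO day 1 replicate 4 and 1 without KO day 1 replicate 5. The product of Id1 sequesters E proteins from MyoD. Its RNA had 47.7, 38.9, 20.5 and 28.5 CPM at KO day 1, against 134, 170, 59.2 and 91.3 CPM at KO day 0 (log2 fold change -1.75 ± 0.42 (SE), adjusted p = 0.000508). Id2, of the same family, had 48.6, 68.5, 34.2 and 41.8 CPM at KO day 1, against 102, 114, 76.4 and 88.4 CPM at KO day 0 (log2 fold change -0.98 ± 0.24 (SE), adjusted p = 0.0202). Neither overlapped between days. Id3 had 245, 680, 232 and 303 CPM at KO day 1, against 599, 792, 599 and 470 CPM at KO day 0 (log2 fold change -0.75, adjusted p = 0.345), with KO day 1 replicate 3 above 3 of the day 0 libraries, and passed with the block (log2 fold change -0.88, adjusted p = 0.0468). Without that library Id3 had -1.24, adjusted p = 0.0699. Ltbp2 encodes a matrix protein of the latent TGF-beta binding family. It ranged over 8.26 to 23.7 CPM at KO day 1 and 55.6 to 86.7 CPM at KO day 0 (log2 fold change -1.99, adjusted p = 0.00851). Smad6 encodes an inhibitor of BMP signalling. It ranged over 8.46 to 12.2 CPM at KO day 1 and 13.6 to 38.7 CPM at KO day 0 (log2 fold change -1.42, adjusted p = 0.0495, and 0.0505 without KO day 1 replicate 3).

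Myogenic regulators moved unevenly. Of 22 myogenic transcription factors tested, 6 rose and 1 fell (median 0.46), with 8 and 1 without KO day 1 replicate 3. The rises numbered 1 without KO day 0 replicate 3 or KO day 1 replicate 5, 3 without KO day 0 replicate 5 and 2 without KO day 1 replicate 1. Myog is the gene of myogenin. It had 13.7, 34.9, 8.33 and 58.9 CPM at KO day 1, against 0.549, 6.18, 12.5 and 4.36 CPM at KO day 0 (log2 fold change 2.30 ± 1.11 (SE), adjusted p = 0.0127). Its days overlapped, since KO day 1 replicate 4 lay below KO day 0 replicate 4. Myod1 is the gene of the determination factor MyoD. It had 261, 255, 175 and 243 CPM at KO day 1, against 213, 163, 180 and 130 CPM at KO day 0 (log2 fold change 0.45, adjusted p = 0.203), Myf5 had a log2 fold change of 0.06 (adjusted p = 0.956), and Myf6 was at or under 0.343 CPM in all 8 libraries. The E protein genes Tcf4 and Tcf12, whose products pair with MyoD, rose (log2 fold change 1.59, adjusted p = 0.003 for Tcf4, and log2 fold change 0.94, adjusted p = 0.0105 for Tcf12). Mef2a encodes a partner of MyoD on muscle genes. It had 221, 79.3, 125 and 219 CPM at KO day 1, against 62.9, 57.5, 69.7 and 77.9 CPM at KO day 0 (log2 fold change 1.27 ± 0.37 (SE), adjusted p = 0.0145). Tead4 encodes a TEAD factor active in myoblasts. It fell (log2 fold change -1.25, adjusted p = 0.00744), over 2.28 to 4.43 CPM at KO day 1 and 4.81 to 10.8 CPM at KO day 0.

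Genes of excitation-contraction coupling and the endplate held the largest share of rises among the muscle groups. Of 25 tested, 13 rose, against 4.18% of all genes, and 0 fell (median 1.06), with 15 rising without KO day 1 replicate 3. The count was 8 without KO day 0 replicate 3, 8 without KO day 0 replicate 5, 7 without KO day 1 replicate 1 and 6 without KO day 1 replicate 5. Chrnd (chr1:87190607-87200070), the delta subunit of the muscle acetylcholine receptor, had 36.4, 26, 13.9 and 36.9 CPM at KO day 1, against 3.43, 5.25, 5.63 and 6.54 CPM at KO day 0 (log2 fold change 2.44 ± 0.38 (SE), adjusted p = 3.09e-05). Chrng (chr1:87204657-87212694), the fetal gamma subunit, had 53.8, 29.3, 10.6 and 48.1 CPM at KO day 1, against 8, 2.88, 6.7 and 2.18 CPM at KO day 0 (log2 fold change 2.84 ± 0.69 (SE), adjusted p = 0.000205). Neither subunit overlapped between days. The 2 CAGCTG matches of the Chrng window shown start at -155 and -132 from its RefSeq start, which differs from the start of the GENCODE gene given here, so that the window lies within the GENCODE gene. Trdn is the gene of triadin in the sarcoplasmic reticulum. It had 30, 19.6, 20.4 and 68.8 CPM at KO day 1, against 3.88, 1.49, 4.78 and 3.45 CPM at KO day 0 (log2 fold change 3.34 ± 0.55 (SE), adjusted p = 0.00167). Hrc encodes a calcium-binding protein of the same store. It ranged over 2.37 to 21 CPM at KO day 1 and 0.872 to 2.13 CPM at KO day 0 (log2 fold change 2.94, adjusted p = 0.00162). The product of Stac3 couples the voltage sensor to the ryanodine receptor. Its RNA ranged over 3.35 to 11.8 CPM at KO day 1 and 1.59 to 3.37 CPM at KO day 0 (log2 fold change 1.83, adjusted p = 0.00108). The ryanodine receptor gene Ryr1 had 100, 9.3, 18.7 and 51.6 CPM at KO day 1, against 7.79, 2.68, 11.1 and 3.25 CPM at KO day 0 (log2 fold change 2.86 ± 0.90 (SE), adjusted p = 0.00234). Its day 1 value in replicate 3 was below the highest day 0 library. Across the 13 rising genes, the lowest day 1 library was replicate 3 in 7 and replicate 4 in 6.

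Contractile genes rose in a minority of members. Of 39 sarcomere genes tested, 8 rose and 0 fell (median 0.52), with 10 rising without KO day 1 replicate 3. The count was 4 without KO day 0 replicate 3, 4 without KO day 0 replicate 5, 5 without KO day 1 replicate 1 and 4 without KO day 1 replicate 5. Tnnt1 is the gene of slow skeletal troponin T. It had 74.6, 130, 25.7 and 111 CPM at KO day 1, against 14.7, 14.5, 12 and 8.17 CPM at KO day 0 (log2 fold change 2.79 ± 0.56 (SE), adjusted p = 0.000119). Lmod3 encodes a nucleator of thin filaments. It ranged over 3.57 to 12.7 CPM at KO day 1 and 0.793 to 2.13 CPM at KO day 0 (log2 fold change 2.77, adjusted p = 0.000989). Mybpc1 encodes a thick filament protein. It ranged over 1.46 to 6.67 CPM at KO day 1 and 0 to 0.512 CPM at KO day 0 (log2 fold change 3.31, adjusted p = 0.00298). Smyd1 encodes a muscle methyltransferase that acts with myosin chaperones. It ranged over 10.3 to 15 CPM at KO day 1 and 1.37 to 6.96 CPM at KO day 0 (log2 fold change 1.69, adjusted p = 0.00718). These 4 genes did not overlap between days. Actc1 encodes the cardiac actin of early myotubes. It had 2.14, 3.55, 0.433 and 2.91 CPM at KO day 1, against 2.54, 2.88, 11.4 and 0.317 CPM at KO day 0 (log2 fold change -0.94, adjusted p = 0.418), with KO day 0 replicate 4 the highest library, and turned to 0.23 without it. KO day 0 replicate 4 was the highest day 0 library in 7 of the 8 rising sarcomere genes.

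Of 33 genes of the Z-disc and of filamin C partners tested, 5 rose and 0 fell (median 0.23), with 7 and 2 without KO day 1 replicate 3. Synpo2l encodes a Z-disc protein of the synaptopodin family. It had 193, 54.9, 81.3 and 152 CPM at KO day 1, against 13.7, 19.2, 26.5 and 12.2 CPM at KO day 0 (log2 fold change 2.75 ± 0.48 (SE), adjusted p = 1.06e-05). Pdlim3 encodes a PDZ-LIM protein that binds alpha-actinin. It had 110, 116, 48.9 and 89.4 CPM at KO day 1, against 15.8, 12.2, 21.6 and 6.26 CPM at KO day 0 (log2 fold change 2.71 ± 0.47 (SE), adjusted p = 3.09e-05). Klhl40 encodes a stabiliser of thin filament proteins. It ranged over 3.73 to 17.5 CPM at KO day 1 and 0.476 to 2.09 CPM at KO day 0 (log2 fold change 3.20, adjusted p = 0.000195). Actn3 encodes the alpha-actinin of fast fibres. It ranged over 111 to 375 CPM at KO day 1 and 29 to 81.2 CPM at KO day 0 (log2 fold change 2.14, adjusted p = 0.00165). None of the 5 rising genes overlapped between days, and KO day 0 replicate 4 was the highest day 0 library in all 5. Over all genes tested, called or not, all day 1 libraries lay above in 3.58%. Of 23 fusion and adhesion genes tested, 4 rose and 0 fell (median 0.44), with 7 rising without KO day 1 replicate 3 and 2 without KO day 1 replicate 1. Tmem182 encodes a muscle membrane protein. It had 13.5, 13.5, 11.4 and 14.8 CPM at KO day 1, against 1.58, 3.71, 2.99 and 3.41 CPM at KO day 0 (log2 fold change 2.19 ± 0.28 (SE), adjusted p = 0.000883). Cdh15 is the gene of M-cadherin. It ranged over 430 to 724 CPM at KO day 1 and 242 to 310 CPM at KO day 0 (log2 fold change 0.98, adjusted p = 0.00935). Cd82 encodes a tetraspanin. It ranged over 188 to 396 CPM at KO day 1 and 70.4 to 174 CPM at KO day 0 (log2 fold change 1.26, adjusted p = 0.00654). Mymx encodes the fusion peptide myomixer. It had 3.69, 3.38, 0.324 and 4.19 CPM at KO day 1, against 0.618, 0.824, 1.02 and 0.396 CPM at KO day 0 (log2 fold change 2.02, adjusted p = 0.0294, and adjusted p = 0.133 with the block), and its partner Mymk had 24.3, 20.6, 7.46 and 11 CPM at KO day 1, against 6.18, 6.7, 17.4 and 4.56 CPM at KO day 0 (log2 fold change 0.86, adjusted p = 0.278).

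A few serum-regulated signalling genes were called in each direction. Of 25 immediate early and serum response genes, 5 rose and 1 fell (median 0.19), with 8 and 2 without KO day 1 replicate 3. Rising members numbered 2 without KO day 0 replicate 3 and 3 without KO day 1 replicate 1 or KO day 1 replicate 5. Fos encodes an AP-1 subunit. It had 7.86, 4.4, 6.16 and 5.99 CPM at KO day 1, against 2.33, 1.75, 2.9 and 1.43 CPM at KO day 0 (log2 fold change 1.54 ± 0.27 (SE), adjusted p = 0.00269). Btg2 encodes an antiproliferative early response protein. It ranged over 40.9 to 57.8 CPM at KO day 1 and 9.36 to 30.8 CPM at KO day 0 (log2 fold change 1.23, adjusted p = 0.00571), Jun rose (log2 fold change 0.85, adjusted p = 0.0188), and Egr1 rose (log2 fold change 1.13, adjusted p = 0.0379). Nr4a1, an orphan nuclear receptor, passed here (log2 fold change 1.38, adjusted p = 0.0187) but not with the block (adjusted p = 0.0664), as did the member that fell, Klf10, a TGF-beta-induced repressor (log2 fold change -0.90, adjusted p = 0.0145, and 0.0508 with the block). Of 16 ERK feedback genes, 2 rose and 2 fell (median -0.01). Leaving out KO day 1 replicate 3 gave 2 rising and 3 falling. Falling feedback genes numbered 0 without KO day 0 replicate 3 or KO day 0 replicate 5 or KO day 1 replicate 5 and 1 without KO day 0 replicate 4 or KO day 1 replicate 1. Spry2 encodes a feedback inhibitor of receptor tyrosine kinases. It had 168, 76.2, 88.4 and 133 CPM at KO day 1, against 61.2, 42.5, 42 and 37.6 CPM at KO day 0 (log2 fold change 1.34 ± 0.30 (SE), adjusted p = 0.000244), and Spry1 of the same family rose too (log2 fold change 1.33, adjusted p = 0.00643). Epha2 encodes an ephrin receptor. It fell (log2 fold change -1.02, adjusted p = 0.0176). Of 21 SRF and YAP targets, 1 rose and 1 fell (median -0.31), near the shares of all genes (4.18% and 3.8%). Leaving out KO day 1 replicate 3 gave 2 rising and 2 falling, again near the shares of all genes in that fit (10.5% and 11.2%). Filip1l encodes a filamin-interacting protein homologue. It rose (log2 fold change 1.22, adjusted p = 0.0206), and Tagln2, an actin-binding transgelin, fell (log2 fold change -1.45, adjusted p = 0.00676). Ccn2 encodes a secreted YAP and TGF-beta target. It had 389, 313, 566 and 143 CPM at KO day 1, against 739, 314, 469 and 163 CPM at KO day 0 (log2 fold change -0.26, adjusted p = 0.789), and Acta2, smooth muscle actin, a log2 fold change of 0.10 (adjusted p = 0.905, and -0.10 without KO day 1 replicate 3).

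In the Notch pathway, 3 of 17 genes tested rose and 1 fell (median 0.10), with 5 rising without KO day 1 replicate 3. Rising Notch genes numbered 1 without KO day 0 replicate 3 or KO day 0 replicate 5. The ligand gene Dll1 had 16.6, 4.06, 6.27 and 15.4 CPM at KO day 1, against 1.1, 0.927, 1.37 and 1.47 CPM at KO day 0 (log2 fold change 3.12 ± 0.51 (SE), adjusted p = 4.8e-05), and the days did not overlap. The receptor gene Notch3 ranged over 57.3 to 236 CPM at KO day 1 and 16 to 100 CPM at KO day 0 (log2 fold change 1.73, adjusted p = 0.0153). The target gene Heyl had 56.9, 120, 161 and 155 CPM at KO day 1, against 18.8, 15.5, 55.9 and 23.1 CPM at KO day 0 (log2 fold change 2.12 ± 0.54 (SE), adjusted p = 0.0199). Lfng encodes a glycosyltransferase that modifies Notch receptors. It fell (log2 fold change -1.71, adjusted p = 0.0197), over 5.48 to 15.5 CPM at KO day 1 and 20.1 to 53.2 CPM at KO day 0.

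Matrix, protease and chemokine genes changed in a few members. Of 24 matrix proteases and inhibitors tested, 5 rose and 0 fell (median 0.48), with 7 and 1 without KO day 1 replicate 3 and 6 and 4 with the block. Rising proteases and inhibitors numbered 2 without KO day 0 replicate 3 or KO day 0 replicate 5 or KO day 1 replicate 5 and 3 without KO day 1 replicate 1. Plau encodes the urokinase plasminogen activator. It had 166, 166, 123 and 137 CPM at KO day 1, against 44.8, 43, 54.8 and 26.1 CPM at KO day 0 (log2 fold change 1.81 ± 0.25 (SE), adjusted p = 0.000437). Its inhibitor gene Serpine2 had 136, 145, 169 and 311 CPM at KO day 1, against 70.8, 47, 84.4 and 72.9 CPM at KO day 0 (log2 fold change 1.47 ± 0.33 (SE), adjusted p = 0.021). Both were higher in each day 1 library than in any day 0 library. Adamts5 encodes an aggrecan-cleaving protease. It ranged over 55.3 to 143 CPM at KO day 1 and 26.7 to 43.2 CPM at KO day 0 (log2 fold change 1.86, adjusted p = 0.00573). Adam19 encodes a metalloprotease. It ranged over 14.5 to 79 CPM at KO day 1 and 14 to 32.2 CPM at KO day 0 (log2 fold change 1.26, adjusted p = 0.0271). Of 38 collagen and matrix genes tested, 1 rose and 0 fell (median 0.40), when 4.18% of all genes rose. Without KO day 1 replicate 3 the counts were 10 and 0, when 10.5% of all genes rose. With the block they were 7 and 0, when 5.98% of all genes rose. Lama2 encodes a laminin chain of the muscle basement membrane. It had 492, 75.6, 348 and 331 CPM at KO day 1, against 133, 53.7, 142 and 97 CPM at KO day 0 (log2 fold change 1.55 ± 0.68 (SE), adjusted p = 0.0223). Of 20 chemokines and cytokines tested, 2 fell and 0 rose (median -0.58). When KO day 1 replicate 3 was left out, 0 rose and 3 fell, and with the block 0 rose and 5 fell. Ccl2 encodes a monocyte chemokine. It had 13.2, 12.3, 4.33 and 7.66 CPM at KO day 1, against 90.6, 105, 16.6 and 68.4 CPM at KO day 0 (log2 fold change -2.90 ± 0.71 (SE), adjusted p = 0.000433), and its neighbour Ccl7 had 11.8, 25.2, 4.87 and 8.21 CPM at KO day 1, against 68.2, 232, 23.3 and 132 CPM at KO day 0 (log2 fold change -3.19 ± 0.86 (SE), adjusted p = 0.000673).

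Metabolic groups changed in few members, when 4.18% of all genes rose and 3.8% fell. Of 28 glycolysis and hypoxia genes, 5 rose and 1 fell (median 0.09). When KO day 1 replicate 3 was left out, 5 rose and 2 fell. Bnip3 encodes a hypoxia-induced mitophagy receptor that is also a FoxO target. It had 87.2, 175, 66.6 and 96.1 CPM at KO day 1, against 43.7, 15.1, 16.1 and 15.4 CPM at KO day 0 (log2 fold change 2.23 ± 0.47 (SE), adjusted p = 0.000197). Kdm3a encodes a histone demethylase. It ranged over 84.7 to 120 CPM at KO day 1 and 29.1 to 58.7 CPM at KO day 0 (log2 fold change 1.21, adjusted p = 0.000543). Ankrd37 is a HIF target. It ranged over 4.43 to 12.8 CPM at KO day 1 and 1.84 to 3.66 CPM at KO day 0 (log2 fold change 1.58, adjusted p = 0.00503). The product of Pdk1 restrains pyruvate dehydrogenase. Its RNA ranged over 64.5 to 128 CPM at KO day 1 and 13.5 to 67.5 CPM at KO day 0 (log2 fold change 1.68, adjusted p = 0.00932). Of 26 sterol synthesis genes and SREBP2 targets, 0 rose and 0 fell by edgeR (median 0.23), against 3 higher and 0 lower at an unadjusted p under 0.05. By DESeq2 1 rose, and 8 rose by edgeR without KO day 0 replicate 1. Hmgcs1 encodes an early enzyme of that pathway. It had 234, 240, 335 and 476 CPM at KO day 1, against 447, 63, 183 and 95.7 CPM at KO day 0 (log2 fold change 0.70, adjusted p = 0.272), with KO day 0 replicate 1 well above the other day 0 libraries. Of 20 fatty acid, SREBP1 and LXR genes, 1 rose and 1 fell (median 0.21). When KO day 1 replicate 3 was left out, 2 rose and 1 fell, and with the block 1 rose and 0 fell. Mylip encodes a ubiquitin ligase induced by LXR. It rose (log2 fold change 1.11, adjusted p = 0.0394), and Me1, malic enzyme, fell (log2 fold change -0.60, adjusted p = 0.0209, and 0.101 with the block). Of 32 integrated stress and unfolded protein response genes, 1 fell and 0 rose (median -0.42), with 5 falling without KO day 1 replicate 3 and 10 with the block. Shmt2, the mitochondrial serine hydroxymethyltransferase, was the gene that fell (log2 fold change -1.30, adjusted p = 0.0258).

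Calls among respiratory chain genes depended on whether KO day 1 replicate 3 was kept. Of 30 nuclear genes, 0 rose and 0 fell by edgeR (median -0.06). At an unadjusted p under 0.05, 0 were higher and 3 lower, and 1 fell by DESeq2. Without that library 13 fell (median -0.60), against 1 without replicate 3 of both days. Of 10 mitochondrial transcripts tested, 1 rose, all 10 had a positive fold change (median 0.76), and 5 rose without KO day 1 replicate 3. Mitochondrial transcripts took 3.44%, 1.73%, 2.84% and 3.19% of counts at KO day 1 and 2.44%, 1.57%, 2% and 2.26% at KO day 0. The rising member mt-Atp6, a subunit of ATP synthase, stayed at or under 1.55 CPM.

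Lysosomal, p53, clock, glucocorticoid and interferon lists had at most 3 calls in a direction, when 4.18% of all genes rose and 3.8% fell. Of 26 lysosome and autophagy genes, 3 rose and 0 fell (median 0.26). The fit without KO day 1 replicate 3 called 3 higher and 0 lower. Rising lysosome and autophagy genes numbered 8 without KO day 0 replicate 1, 0 without KO day 0 replicate 3 and 1 without KO day 0 replicate 5 or KO day 1 replicate 1 or KO day 1 replicate 5. Lamp2 encodes a lysosomal membrane protein. It had 784, 421, 488 and 839 CPM at KO day 1, against 475, 233, 243 and 302 CPM at KO day 0 (log2 fold change 1.01 ± 0.34 (SE), adjusted p = 0.00924). Map1lc3a, an autophagosome protein, passed (adjusted p = 0.0208), and not without KO day 1 replicate 3 (adjusted p = 0.0519). Of 16 p53 targets, 1 rose and 0 fell (median -0.02), namely Trp53inp1, which acts in stress-induced autophagy (log2 fold change 1.63, adjusted p = 0.0408). The fit without KO day 1 replicate 3 called 1 higher and 2 lower, and with the block 2 rose and 1 fell. Of 20 circadian clock genes, 1 rose and 0 fell (median 0.13), namely Rora, a nuclear receptor of the clock (log2 fold change 1.34, adjusted p = 0.0367). The fit without KO day 1 replicate 3 called 2 higher and 0 lower. Of 13 glucocorticoid targets tested, 1 rose and 1 fell (median 0.36). The fit without KO day 1 replicate 3 called 3 higher and 1 lower, and with the block 2 rose and 1 fell. Errfi1 encodes an inhibitor of EGF receptors. It rose (log2 fold change 0.80, adjusted p = 0.0258), and Sgk1, a serum- and glucocorticoid-induced kinase, fell (log2 fold change -1.43, adjusted p = 0.00193). Of 26 interferon response and antigen presentation genes tested, 0 rose and 0 fell by edgeR or DESeq2 (median 0.30), with 3 higher and 0 lower at an unadjusted p under 0.05. Without KO day 1 replicate 3, 1 rose, and without KO day 0 replicate 1, 3 rose.

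Of all protein-coding calls with at least 5 CPM on average and no overlap between days, 194 genes higher and 231 lower, the 12 furthest in each direction include genes outside these lists. Tmc3 encodes a transmembrane channel-like protein. It had 123, 11.6, 108 and 76.8 CPM at KO day 1, against 9.96, 0.309, 11.4 and 3.25 CPM at KO day 0 (log2 fold change 3.67 ± 1.36 (SE), adjusted p = 0.00374). C1qtnf3 encodes a secreted protein of the C1q and TNF family. It had 339, 68.5, 65.5 and 76.4 CPM at KO day 1, against 24.7, 11, 10.6 and 8.8 CPM at KO day 0 (log2 fold change 3.31 ± 0.66 (SE), adjusted p = 0.000572). In C1qtnf3, replicate 1 was the highest library on both days. Mrln encodes the micropeptide myoregulin that inhibits the calcium pump SERCA. It ranged over 2.97 to 16.4 CPM at KO day 1 and 0.317 to 2.01 CPM at KO day 0 (log2 fold change 2.90, adjusted p = 0.000339). Sema3c encodes a secreted semaphorin. It ranged over 14.3 to 71.7 CPM at KO day 1 and 1.08 to 10.5 CPM at KO day 0 (log2 fold change 2.82, adjusted p = 0.00303). Maf encodes a leucine zipper factor. It ranged over 26.1 to 105 CPM at KO day 1 and 4.6 to 19.8 CPM at KO day 0 (log2 fold change 2.79, adjusted p = 0.000158). Dock10 encodes a guanine nucleotide exchange factor. It ranged over 8.97 to 28.7 CPM at KO day 1 and 0.687 to 4.95 CPM at KO day 0 (log2 fold change 2.79, adjusted p = 0.00754). Dll1, Trdn, Klhl40, Hrc, Chrng and Tnnt1, given above, complete the 12.

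The 12 furthest falls hold few muscle genes. Krt14 encodes a basal keratin. It had 4.42, 21, 12.3 and 6.2 CPM at KO day 1, against 55.7, 109, 118 and 100 CPM at KO day 0 (log2 fold change -3.13 ± 0.56 (SE), adjusted p = 0.00342). Wnt4 encodes a secreted Wnt ligand. It had 8.54, 11.5, 4.6 and 3.34 CPM at KO day 1, against 38.3, 37.6, 30.4 and 12.3 CPM at KO day 0 (log2 fold change -2.09 ± 0.56 (SE), adjusted p = 0.0311). Hmga1 encodes an architectural chromatin protein of growing cells. It had 12.4, 17.7, 17 and 8.51 CPM at KO day 1, against 22.8, 64.3, 55.5 and 91.5 CPM at KO day 0 (log2 fold change -2.08 ± 0.49 (SE), adjusted p = 0.00206). Anxa8 encodes an annexin. It ranged over 9.41 to 50.9 CPM at KO day 1 and 86.9 to 173 CPM at KO day 0 (log2 fold change -2.12, adjusted p = 0.0148). Pcolce2 encodes an enhancer of procollagen processing. It ranged over 9.84 to 17.7 CPM at KO day 1 and 34.5 to 98.1 CPM at KO day 0 (log2 fold change -2.35, adjusted p = 0.0015). Ngef encodes a guanine nucleotide exchange factor of neurons. It ranged over 1.65 to 7.19 CPM at KO day 1 and 7.69 to 31.8 CPM at KO day 0 (log2 fold change -2.58, adjusted p = 0.00211). Irf5 encodes an interferon regulatory factor. It ranged over 1.07 to 4.06 CPM at KO day 1 and 8.03 to 16.8 CPM at KO day 0 (log2 fold change -2.09, adjusted p = 0.0366). Prl2c2 encodes a proliferin. It ranged over 0.642 to 3.15 CPM at KO day 1 and 4.74 to 17.1 CPM at KO day 0 (log2 fold change -2.82, adjusted p = 0.0407). Siglecg, Lman1l and Dynap, with Ccl2 above, complete the 12, at log2 fold changes of -2.15, -2.57 and -2.22 (adjusted p = 0.0182, 0.00176 and 0.00577). Prl2c2 and Hmga1 have near-identical copies in the genome, so their counts are uncertain.

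The same step in WT cells called 320 genes higher (2.32%) and 257 lower (1.87%). The KO step and the WT step share no library, though at day 1 libraries of the same number deviate together across the lines. Their r was 0.50 to 0.79, and unlike numbers reached 0.36. At day 0 same numbers had r of 0.15 to 0.47, and an unlike pair reached 0.49 (KO replicate 5 with WT replicate 3). Matching by number across the lines is thus not clear at day 0. In all, 366 genes were called in both steps in the same direction, which is 33.3% of the KO calls and 63.4% of the WT calls, 0 were called in opposite directions, and 1087 of the 1100 KO calls (98.8%) had the same sign in WT. The difference between the KO and the WT step was tested in the same edgeR model and called 0 genes, with 341 (2.47%) at an unadjusted p under 0.05 and 1 called by DESeq2. The unadjusted count was higher when either or both of 2 libraries were left out. Without KO day 1 replicate 3 it was 1022 of 13756 genes, with 0 called after adjustment. Without WT day 0 replicate 4 it was 574 of 13761, with 1 called, and without both libraries 2020 of 13738, with 1 called. No gene is described here as particular to the KO cells.

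The lists are set side by side with that in mind. Over all genes tested, 4.18% rose and 3.8% fell in KO, against 2.32% and 1.87% in WT. More calls in a list in KO are to be read against these shares. DNA replication had 16 falling members in KO and 9 in WT (medians -1.24 and -1.01), and ribosome biogenesis 16 and 17 (medians -0.91 and -0.98). Excitation-contraction coupling and the endplate had 13 rising members in KO and 8 in WT (medians 1.06 and 0.69), and the insulin-like growth factor axis 7 and 2 (medians 1.11 and 0.50). The sarcomere list had 8 and 7 rising members but medians of 0.52 in KO and 1.62 in WT. Sterol synthesis had 0 rising in KO and 10 in WT (medians 0.23 and 0.96), but 8 rose in KO without KO day 0 replicate 1. Of its 26 members, 4 had an unadjusted p under 0.05 for the difference, against 2.47% of all genes. Immediate early genes had 5 rising in KO and 1 in WT, interferon genes 0 and 4, and p53 targets 1 and 4. Without KO day 0 replicate 1, 3 interferon genes rose in KO.

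**Figure D3:**
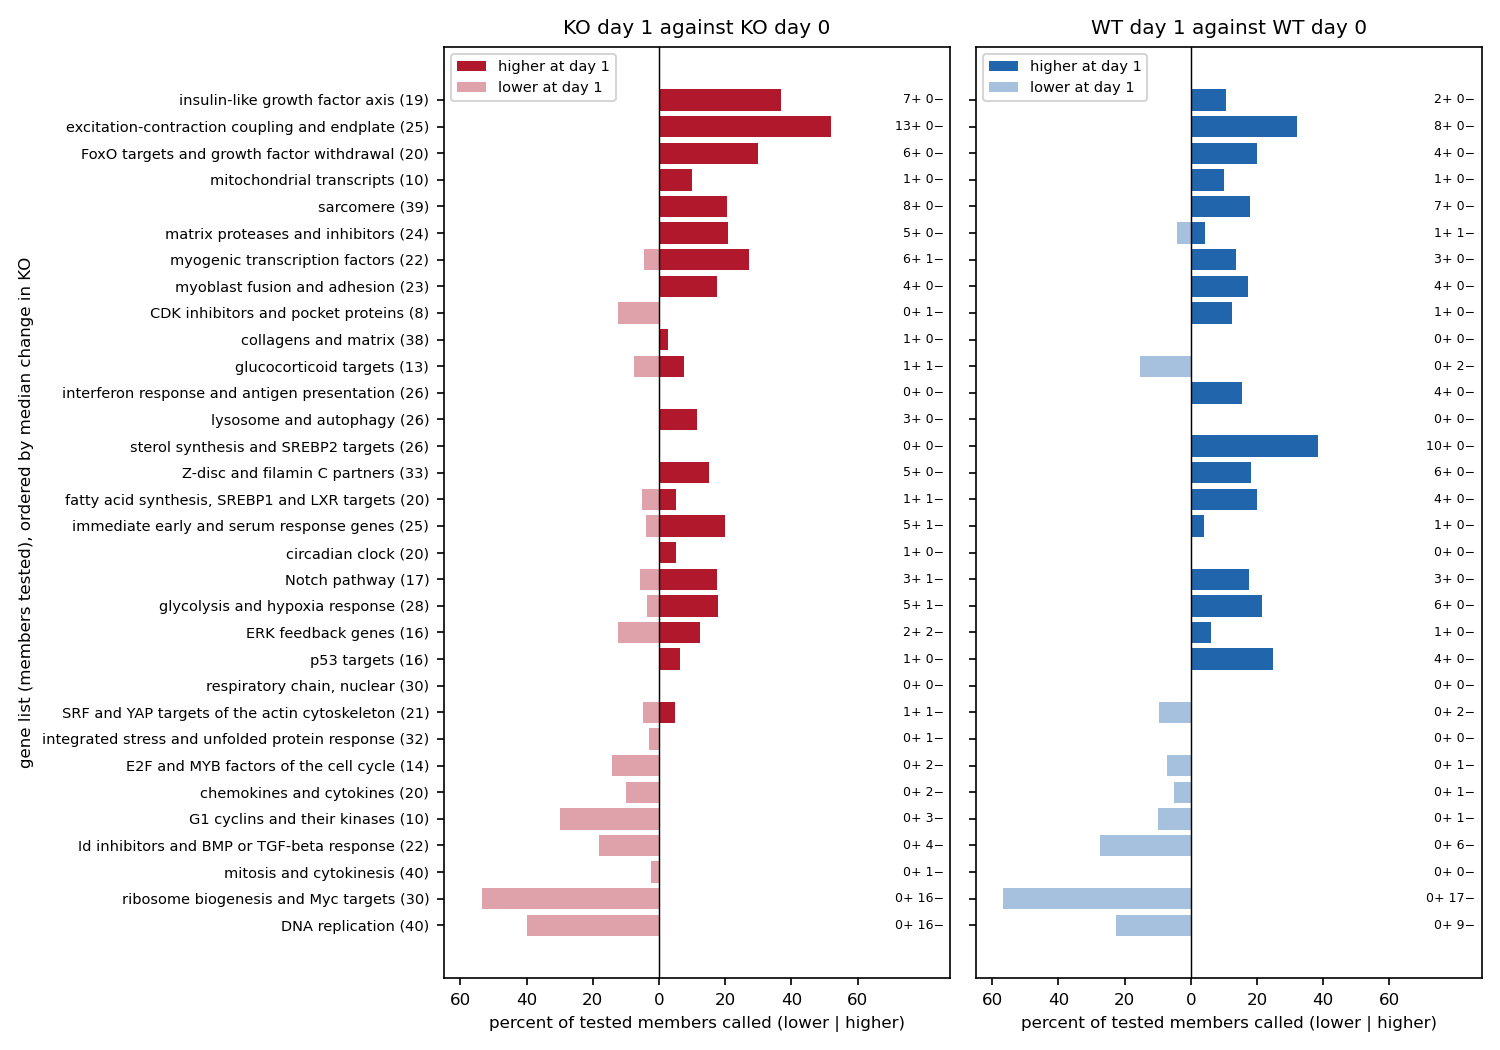
Percent of tested members of each of 32 gene lists called higher (dark, right) or lower (pale, left) at day 1 against day 0, in KO cells (left panel) and WT cells (right panel), with the counts printed at the right of each panel. Excitation-contraction genes led the rises in KO cells with 13 of 25, and ribosome biogenesis fell in 16 of 30 members in KO and 17 in WT. Over all genes tested, 4.18% rose and 3.8% fell in KO cells, against 2.32% and 1.87% in WT cells.

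Single genes with the smallest p for the difference among those named were few, and none passed after adjustment. Actc1 had a log2 fold change of -0.94 in KO and 2.13 in WT (difference -3.07 ± 1.44 (SE), unadjusted p = 0.00218, adjusted p = 1). The KO value of Actc1 turned positive without KO day 0 replicate 4. Id3 had -0.75 in KO and -2.79 in WT (difference 2.03 ± 0.64 (SE), unadjusted p = 0.00477, adjusted p = 1), and Id2 had -0.98 and -2.15 (difference 1.18 ± 0.37 (SE), unadjusted p = 0.00375, adjusted p = 1). For Id2 both steps were called lower, and Id3 had -1.24 in KO without KO day 1 replicate 3. Spry2 had 1.34 in KO and 0.37 in WT (difference 0.98 ± 0.39 (SE), unadjusted p = 0.00299, adjusted p = 1), and Myod1 0.45 and -0.45 (difference 0.90 ± 0.30 (SE), unadjusted p = 0.00601, adjusted p = 1). Tead4 had -1.25 in KO and -0.10 in WT (difference -1.15 ± 0.42 (SE), unadjusted p = 0.00734, adjusted p = 1).

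**Figure D4:**
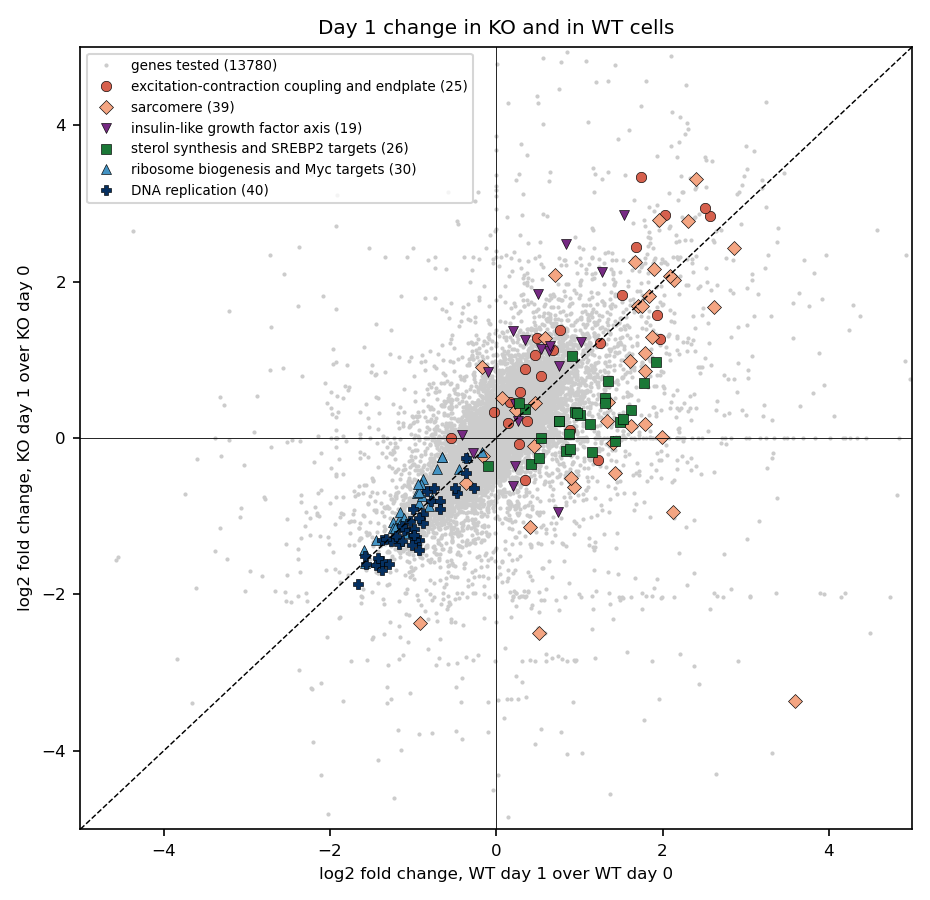
Log2 fold change of day 1 over day 0 in KO cells (vertical axis) and in WT cells (horizontal axis) for the 13780 genes tested, of which 18 lie outside the axes, with 6 lists in colour and the line of equal change dashed. DNA replication and ribosome biogenesis genes lie below 0 on both axes, and most sterol synthesis genes lie further right than up.

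Levels on the later days place the first day within the KO series (means ± SD at days 0, 1, 2, 4 and 6, n = 4, except 3 at KO day 2). Chrng had 4.94 ± 2.85, 35.5 ± 19.6, 103 ± 10.9, 132 ± 38.4 and 135 ± 47.9 CPM in KO cells, and 10.7 ± 6.13, 63.6 ± 40.2, 188 ± 39, 402 ± 27.6 and 419 ± 98.4 CPM in WT cells. Chrng means were higher at each later day in both lines, and the KO mean was lower than the WT mean on every day. Myog had 5.91 ± 5.01, 29 ± 23, 118 ± 10.1, 417 ± 150 and 460 ± 193 CPM in KO cells, and 26.3 ± 19.4, 179 ± 130, 575 ± 103, 1210 ± 274 and 1200 ± 328 CPM in WT cells. For Myog, too, the KO mean was lower on every day. Tnnt1 had 12.3 ± 3.04, 85.3 ± 45.9, 219 ± 28.9, 549 ± 182 and 700 ± 175 CPM in KO cells, and 13.2 ± 7.75, 51.3 ± 28.7, 168 ± 56, 362 ± 76.1 and 504 ± 239 CPM in WT cells. The KO mean of Tnnt1 was higher from day 1 on, with overlapping SDs on every day. Fbxo32 had 18.9 ± 9.92, 120 ± 79, 296 ± 76.6, 444 ± 139 and 388 ± 62.3 CPM in KO cells, and 26.9 ± 8.47, 105 ± 24.1, 107 ± 25.8, 116 ± 42.9 and 112 ± 20.9 CPM in WT cells. Igfbp5 had 1170 ± 175, 5100 ± 2970, 12600 ± 5320, 11000 ± 2940 and 8900 ± 1320 CPM in KO cells, and 1790 ± 782, 4320 ± 1610, 3320 ± 829, 1640 ± 346 and 1170 ± 399 CPM in WT cells. For both genes the lines lay within an SD of each other at day 1 and the KO mean was higher from day 2 on. Id3 had 615 ± 133, 365 ± 212, 364 ± 125, 444 ± 133 and 372 ± 79 CPM in KO cells, and 233 ± 107, 33.8 ± 14.5, 11.1 ± 5.53, 2.6 ± 1.5 and 3.13 ± 2.84 CPM in WT cells. The Id3 mean was higher in KO cells on every day. Mcm2 had 194 ± 60.7, 63.1 ± 36.7, 25.5 ± 9, 21.1 ± 8.74 and 16.2 ± 1.21 CPM in KO cells, and 241 ± 59.2, 92.5 ± 40.3, 38.6 ± 13.5, 19.3 ± 5.38 and 14.3 ± 2.29 CPM in WT cells, and Odc1 218 ± 95.7, 72.9 ± 25.7, 70.2 ± 15.9, 140 ± 26.9 and 139 ± 16.2 CPM in KO cells, and 282 ± 74.2, 104 ± 33.5, 105 ± 16.2, 199 ± 36.8 and 219 ± 38 CPM in WT cells. Odc1 means were lowest on days 1 and 2 in both lines, and Mcm2 means at day 6. These later values are described and not tested here.

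**Figure D5:**
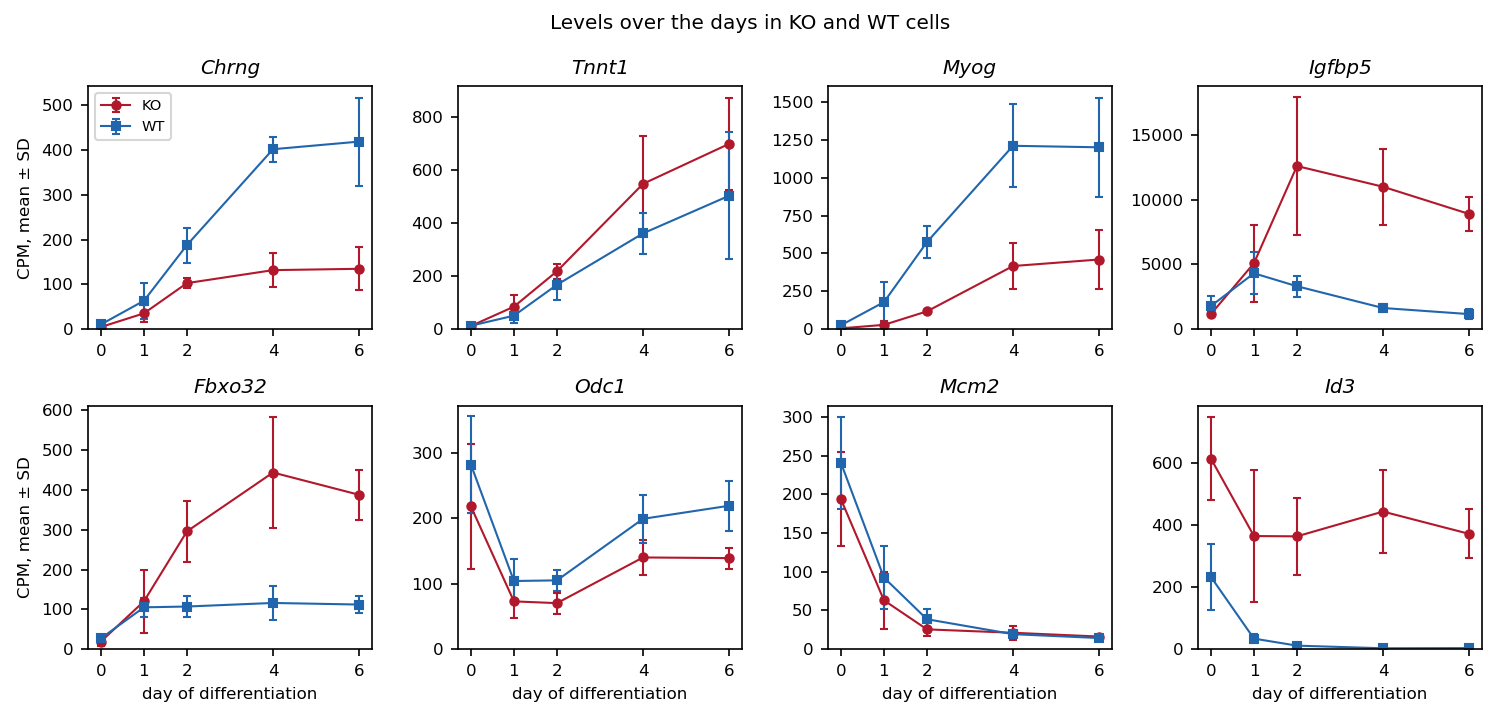
Mean CPM ± SD of 8 genes over days 0, 1, 2, 4 and 6 in KO cells (red) and WT cells (blue), with 4 libraries a point and 3 at KO day 2. Day 1 is the first point after serum withdrawal: the lines lie within their SDs there for Igfbp5 and Fbxo32, while Id3 is higher in KO cells on every day.

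Myoblast markers were present, and markers of endothelial, blood and pluripotent cells were near 0, while the other lists held 1 or more expressed genes. The 8 myoblast markers summed to 3420 to 5010 CPM at KO day 1 and 2160 to 3700 CPM at KO day 0. Their members Cdh15 and Chrna1 rose (log2 fold change 0.98, adjusted p = 0.00935 for Cdh15, and log2 fold change 1.06, adjusted p = 0.0283 for Chrna1). The 7 epithelial markers summed to 4.51 to 21.3 CPM at KO day 1 and 55.9 to 119 CPM at KO day 0, nearly all of it Krt14, with Epcam and Cldn4 at 0 in all 8 libraries. The 8 adipocyte markers summed to 352 to 1230 CPM at KO day 1 and 240 to 565 CPM at KO day 0, mostly Lpl, a lipase that muscle also makes, which rose (log2 fold change 1.49, adjusted p = 0.0304), while Cidec and Lep were at 0. The 10 endothelial and blood markers summed to 2.38 to 8.54 CPM at KO day 1 and 2.71 to 4.64 CPM at KO day 0, with Kdr, Adgre1 and Hbb-bs at 0, and the 6 pluripotency markers to 0 to 0.257 CPM at KO day 1 and 0 to 0.515 CPM at KO day 0. Fibroblast markers summed to 185 to 391 CPM at KO day 1 and 243 to 478 CPM at KO day 0 (9 genes, Thy1 and Tcf21 at 0), osteoblast and chondrocyte markers to 49.7 to 120 CPM at KO day 1 and 98.6 to 134 CPM at KO day 0 (10 genes, Ibsp at 0), and neuronal and glial markers to 12.2 to 28.1 CPM at KO day 1 and 33.1 to 86.8 CPM at KO day 0 (9 genes, Snap25, Syt1 and Sox10 at 0). The part of these differences in the results was not tested.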

How the data were processed

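Stranded mRNA libraries (TruSeq, 51 bp reads, per the labels) were read from a table of raw counts per gene that the authors deposited; per the submitters' processing notes the tools were FastQC 0.11.9, STAR 2.7.9, featureCounts 2.0.3 and DESeq2, and the builds named were GRCm38 and GRCh38, with no role given for the second. Columns were matched to samples by title, and 1 column that matched none was left out. All 29980 gene identifiers matched GENCODE mouse release 21 (GRCm38). Of the counts above 0, 64.4% were even (60.01% to 71.15% in the 8 KO libraries), so mates may have been counted apart and depth in fragments is uncertain; an alternative halved every count.

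A single quasi-likelihood model of 10 groups was fitted in R 4.3.3 (edgeR 4.0.16, with limma 3.58.1), using TMM, filterByExpr, robust quasi-likelihood F-tests and Benjamini-Hochberg adjustment over 13780 genes (29 residual degrees of freedom, common biological coefficient of variation 0.326). Each SE is from log2 CPM (prior count 2) of the groups compared. On simulated data of the KO step (13780 genes) 90.9% of 4-fold changes were found, 34.3% of those of 2-fold and 7.46% of those of 1.5-fold. The simulation changed 66 or 67 genes at each fold, all above a minimum count. It drew the libraries independently, with no pairing and no deviating replicate. Libraries with the same replicate number deviated together (r = 0.61, 0.72, 0.36 and 0.17 for replicates 1, 3, 4 and 5 in KO, and 0.15 to 0.47 in WT), which is taken as pairing from the data, since the labels give only the number. Unlike numbers reached 0.32 in KO (day 1 replicate 4 with day 0 replicate 5) and 0.13 in WT (day 1 replicate 1 with day 0 replicate 3). In KO the pairing is thus clear for replicates 1 and 3 only, and the main model leaves it out.

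The gene groups, 32 lists of 778 genes and 8 marker lists, were chosen with earlier results of these data known; 1 list gene, Lin54, was not analysed here, and a few list members are not reported here by name. Named genes are the 12 largest changes in each direction among protein-coding calls with at least 5 CPM and no overlap, up to 4 called members of each list with the smallest p, all members of lists of up to 12 genes, and 26 key genes; others named (Racgap1, Mybbp1a, Ryr1, Mef2a, Jun, Egr1, Igf1r, Irs1, Hmgcs1, Chrna1 and Lpl) were chosen after their values were seen. Alternatives were DESeq2 1.42.0, its size factors, no filter, glmTreat against a 1.5-fold change, halved counts, a fit of the compared groups alone, a replicate block and leaving out each library; those added after seeing the data left out KO day 1 replicate 3 with WT day 0 replicate 4, or replicate 3 of both KO days, with and without the block.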

Additional observations from a re-analysis of the deposited data

Results flagged for a closer look

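Of 268 groups of 4 libraries checked, 25 (9.33%) held a library whose gap to its nearest neighbour, as a share of the range, passed Dixon's critical value, where chance gives about 1 in 20. KO day 1 replicate 3 was that library in 7 of them: for the share of counts in ribosomal protein genes (9.45%), for its mean correlation with the group (0.799), and for Cdk4 (908 CPM), Id3 (680 CPM), Nolc1 (47 CPM), Myc (21.7 CPM) and Lman1l (3.3 CPM). KO day 0 replicate 1 stood apart for Ccne1 (25.6 CPM), Cdk2 (42.8 CPM) and Pola2 (43 CPM), where it was low, and for Pdk1 (67.5 CPM), Bnip3 (43.7 CPM), Trp53inp1 (93.9 CPM), Igf2 (112 CPM) and C1qtnf3 (24.7 CPM), where it was high. KO day 1 replicate 1 was high for C1qtnf3 (339 CPM).

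KO day 0 replicate 3 was low for Tcf4 (32.6 CPM) and high for Siglecg (20.7 CPM) and Lman1l (19.6 CPM). KO day 0 replicate 4 was high for Mymk (17.4 CPM) and Adamts5 (43.2 CPM). KO day 1 replicate 4 was high for Grb10 (2.65 CPM), Cdkn2c (59.1 CPM) and Cdc25a (19 CPM), and KO day 1 replicate 5 for Trim63 (9.41 CPM). The part of these libraries in the results was not tested beyond leaving each out.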

How the results depend on the processing

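Against 1100 calls in the KO step, glmTreat gave 130, the 8 libraries alone gave 17, and leaving out single libraries gave 326 to 2986; DESeq2, its size factors, no filter, halved counts, the replicate block (1430, with 807 of the 1100 calls made again in the same direction) and leaving out replicate 3 of both days (1129) kept the count within 1.5 times, while the replicate block without replicate 3 of both days gave 2775. The WT step gave 987 by DESeq2, 77 by glmTreat, 314 from its own libraries, 1312 with the replicate block and 115 to 715 without single libraries. The step difference gave 0 to 1 without single libraries, 1 by DESeq2, 1 without KO day 1 replicate 3 and WT day 0 replicate 4, and 0 with the replicate block. No called gene among those named changed sign, but many lost the call under some settings. On the 8 libraries without the block 87 lost it and 11 kept it, and by glmTreat 59 lost it and 40 kept it. Without KO day 0 replicate 3, 38 lost it and 61 kept it, and without KO day 1 replicate 5, 34 and 65. With the replicate block 7 lost it and 91 kept it. Of genes not called, the log2 fold change turned sign within the range without single libraries for Myf5 (-0.25 to 0.49), Ccn2 (-0.58 to 0.16), Ccnd3 (-0.16 to 0.21), Acta2 (-0.10 to 0.30), Cdk6 (-0.42 to 0.032), Igf2 (-0.34 to 2.08) and Actc1 (-1.33 to 0.23). Without replicate 3 of both days Ccnd3 had -0.13, Acta2 -0.13 and Cdk6 0.094, and with the replicate block as well -0.12, -0.059 and 0.15, with Cdkn1c at -0.062. The causes were not tested. In the simulation with 4 libraries a group, most changes of 2-fold or less were missed. It changed fewer genes than were called here, so its shares may not carry over, and some genes under 2-fold were called (Cdk2 at 1.54-fold, Me1 at 1.51-fold).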
